A study of Ovis aries with 40 samples.

Results

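The genes described here are 7 that mark pulmonary neuroendocrine cells and lung neurons: *UCHL1*, *SCG5*, *CHGA*, *SCG2*, *GRP*, *INSM1* and *SYP*. They were found by gene symbol, and all 7 are among the 24478 genes counted in 40 bulk RNA-seq libraries of fetal and newborn sheep lung. All 7 passed the filter on low counts in each of the 4 time courses. Proximal and distal lung came from wildtype (WT) and *CFTR*-/- (CF) American Romney sheep, which were sampled at term (day 147) and at gestational days 65, 80, 100 and 120. Each genotype, region and time point has 2 libraries. *CFTR* encodes the epithelial chloride channel that is mutated in cystic fibrosis. WT lambs were bred naturally and the WT term animals were born naturally. CF animals were clones made by somatic cell nuclear transfer from a single male fetal fibroblast line in which *CFTR* had been targeted. CF therefore differs from WT in cloning and donor line as well as in *CFTR*, and these cannot be told apart. Proximal and distal libraries with the same number came from the same animal.

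Pulmonary neuroendocrine cells are rare airway epithelial cells that store peptides and amines in dense-core granules and that often sit in clusters beside nerve endings. The transcription factor INSM1 drives their differentiation, granins such as CHGA and SCG2 fill the granules, SCG5 assists the prohormone convertase PCSK2, and gastrin-releasing peptide (GRP) is one of the peptides they release onto neighboring cells. UCHL1, also known as PGP9.5, is a deubiquitinating enzyme and SYP is a membrane protein of synaptic vesicles. Both are used as general markers of nerve and neuroendocrine tissue, and intrinsic neurons and nerve fibers of the lung hold several of the same proteins.

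In the oviAri4 (Oar_v4.0) assembly *GRP* lies at chr23:58392313-58405442 on the plus strand, *CHGA* at chr18:56428370-56441509 (plus), *INSM1* at chr13:38922440-38925302 (plus), *UCHL1* at chr6:60026212-60038571 (plus), *SCG5* at chr7:26989142-27044635 (minus), *SCG2* at chr2:224780332-224785939 (minus) and *SYP* at chrX:52674558-52685643 (plus). Their counted exons, from 811 bases in *GRP* to 2768 bases in *INSM1*, overlapped no exon of another gene in the deposited annotation columns.

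Values are given as CPM, the counts of a gene per 1000000 counts of its library, after scaling all 40 libraries by the trimmed mean of M values (TMM). Up to day 120, a WT library held between 24670355 and 43700012 counts (n = 16) and a CF library between 85773994 and 103139483 (n = 16), so that depth and genotype cannot be told apart there, and the 8 term libraries held 115937437 to 126749480. Within WT every term library was thus deeper than every earlier one, so that greater depth coincides with term there. A count of 3 in 1 library corresponded to 0.0251 to 0.124 CPM. *CFTR* itself, a check of the genotype labels that a targeted exon need not move, lay at 9.58 to 43.8 CPM in WT and 3.65 to 34.9 CPM in CF libraries. Within every region and time point both CF libraries lay below both WT libraries. In distal lung at term, for example, they held 3.65 and 4.86 CPM against 10.6 and 12.8 CPM in WT. Both WT libraries of a region at day 100 carry the same animal label, and a label is also common to replicate 2 of WT at day 65 and replicate 2 of CF at day 100. The *p*-values therefore measure the spread between these libraries, which may in part be technical. The 2 libraries of CF proximal lung at day 120 stood apart from each other, with a root mean square difference of 1.63 on the log2 scale over genes, where the other 19 pairs lay between 0.22 and 0.76.

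Per base of transcript the members spanned a wide range. Averaged over the 40 libraries, *UCHL1* had 86.9 RPKM (CPM per kilobase of exon) and *SCG5* 18.6, *GRP* had 2.04 and *CHGA* 1.88, and *SYP* (0.626), *SCG2* (0.204) and *INSM1* (0.0929) were scarce. *UCHL1*, *SCG5*, *CHGA* and *SYP* had counts in every library. *GRP* was at 0 in 3 libraries and *INSM1* and *SCG2* in 8 each, and *INSM1* had fewer than 10 counts in 22 libraries, so its changes are known only coarsely. Further markers of the same cells were mixed: *NCAM1*, *ENO2*, *DDC* and *SCG3* had at least 10 counts in every library, while others were scarce. *CALCA*, which encodes the peptide CGRP, reached at most 0.558 CPM, and *NEUROD1*, a proneural transcription factor, at most 0.806 CPM. *TUBB3* and *DBH* were not found by symbol and are not analysed here. The source tissue is labeled as epithelial, and the summed CPM of 9 epithelial genes ran from 567 to 2060, beside 3340 to 18000 for 9 genes of fibroblasts, endothelium and leukocytes and 15.4 to 633 for 7 cartilage genes.

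*UCHL1* was the most abundant member, and its level at term was below that at day 65 in all 4 time courses, past the test in 3 of them and with an adjusted p of 0.00734 (edgeR) in CF proximal lung. In WT proximal lung the 2 libraries had 185 and 220 CPM at day 65, 203 and 157 at day 80, 76 and 84 at day 100, 13.5 and 15.2 at day 120, and 5.52 and 2.89 at term. In WT distal lung they had 205 and 259, 213 and 176, 116 and 108, 14 and 16.7, and 5.69 and 6.65 CPM at the same time points. Levels were close at days 65 and 80, and every library from day 100 on lay below both libraries of day 80 in its region. *UCHL1* in CF proximal lung was at 176 and 136, 195 and 121, 61.2 and 93.4, 11.6 and 36.1, and 6.32 and 1.58 CPM. In CF distal lung it was at 200 and 309, 129 and 170, 76.8 and 76.5, 13.2 and 20.9, and 5.95 and 3.19 CPM. In CF lung, too, every library from day 100 on lay below both libraries of day 80 in its region, while in CF distal lung both libraries of day 80 already lay below both of day 65. The second CF proximal library of day 120, at 36.1 CPM, was the highest of the 8 libraries of that day. From day 65 to term the mean *UCHL1* CPM was 48.2-fold lower in WT proximal, 37.6-fold lower in WT distal, 39.5-fold lower in CF proximal and 55.7-fold lower in CF distal lung.

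SCG5 is the chaperone of the prohormone convertase PCSK2, and its gene was the next most abundant. In WT proximal lung *SCG5* was at 31.5 and 32.1 CPM at day 65, 35.2 and 36.8 at day 80, 15.5 and 17 at day 100, 2.88 and 2.96 at day 120, and 2.34 and 2.39 at term. In WT distal lung the values were 36.9 and 40, 47.3 and 37.2, 20 and 21.1, 3.3 and 4.07, and 2.89 and 4.09 CPM. The WT replicates were close, and most of the descent lay between days 80 and 120, with little left between day 120 and term, where the means were 1.23-fold (proximal) and 1.06-fold (distal) apart. In CF proximal lung *SCG5* was at 36.4 and 27.5, 43.4 and 23.1, 9.15 and 16.5, 2.42 and 10.2, and 1.47 and 0.772 CPM, and in CF distal lung at 37.3 and 56.5, 26 and 25.2, 14.5 and 16.1, 1.84 and 4.96, and 2 and 1.83 CPM. The mean at term was 13.4-fold (WT proximal), 11-fold (WT distal), 28.6-fold (CF proximal) and 24.5-fold (CF distal) below that of day 65.

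Of the granins, *CHGA* started lower, and its mean declined from the first time point. In WT proximal lung it was at 7.42 and 5.93, 4.84 and 3.47, 2.21 and 3.79, 1.35 and 1.66, and 0.488 and 0.502 CPM from day 65 to term, and in WT distal lung at 9.52 and 7.02, 5.43 and 4.72, 3.23 and 2.33, 2.23 and 1.5, and 0.777 and 1.19 CPM. In CF proximal lung it was at 9.35 and 8.78, 5.3 and 5.1, 1.36 and 3.67, 0.453 and 3.48, and 0.505 and 0.596 CPM, and in CF distal lung at 13.5 and 11.7, 2.95 and 5.86, 2.28 and 3.13, 0.494 and 0.897, and 0.844 and 0.557 CPM. All 8 libraries of day 65, at 5.93 CPM or more, lay above all 8 libraries of day 80, at 5.86 CPM or less. These libraries include 2 regions of each animal, and how many of all genes separate in this way was not computed. Between days 65 and 80 *CHGA* did not pass an adjusted p of 0.05 (edgeR) in any time course. The day 65 mean exceeded the term mean 13.5-fold in WT proximal, 8.4-fold in WT distal, 16.5-fold in CF proximal and 18-fold in CF distal lung.

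**Figure D1:**
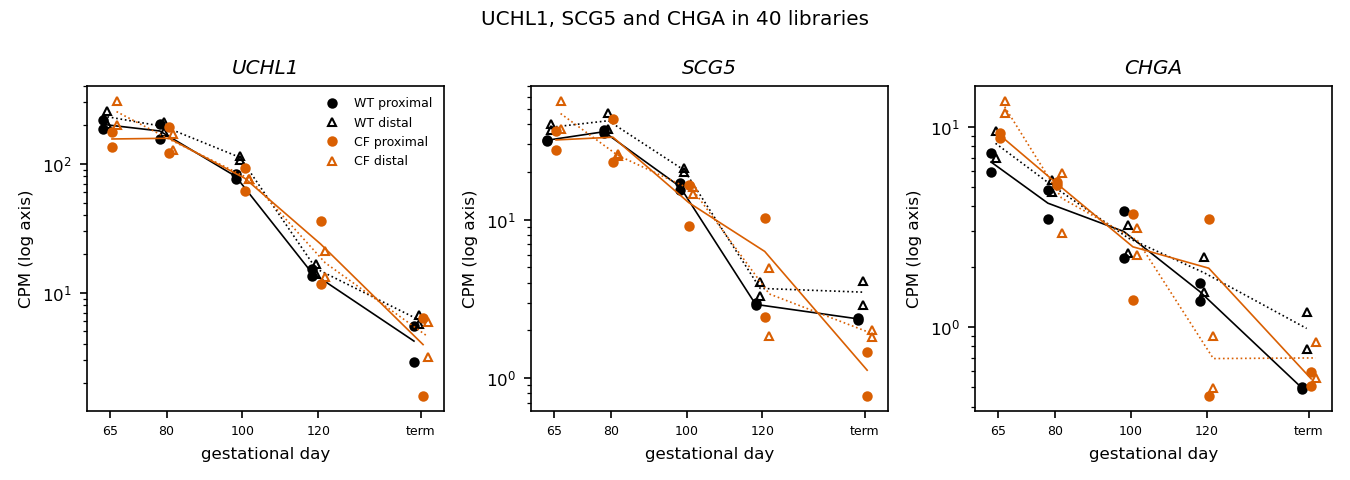
CPM (log axis) of UCHL1, SCG5 and CHGA in each of the 40 libraries against gestational day, with a line through the mean of the 2 libraries of each genotype and region. UCHL1 runs from 136 to 309 CPM at day 65 down to 1.58 to 6.65 CPM at term, and the second CF proximal library of day 120 lies above the others of that day for all 3 genes.

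*GRP*, the bombesin-like peptide gene, was present before day 120 and close to the limit of detection afterwards. In WT proximal lung it was at 2.1 and 2.75 CPM at day 65, 1.28 and 2.1 at day 80, 0.964 and 0.676 at day 100, 0 and 0.111 at day 120, and 0.0174 and 0.0251 at term. In WT distal lung it was at 2.8 and 0.549, 0.844 and 2.55, 0.412 and 0.149, 0 and 0, and 0.0452 and 0.123 CPM. In CF proximal lung *GRP* was at 11.3 and 6.71, 5.25 and 1.67, 0.828 and 3.36, 0.0394 and 0.279, and 0.0388 and 0.0662 CPM, and in CF distal lung at 7.16 and 5.64, 1.67 and 2.92, 0.692 and 0.618, 0.0631 and 0.167, and 0.0211 and 0.201 CPM. None of the 16 libraries of day 120 and term exceeded 0.279 CPM, whereas all libraries of days 65 and 80 had 0.844 CPM or more except WT distal replicate 2 of day 65. The mean *GRP* CPM fell below its day 65 value 114-fold by term in WT proximal lung, on a total of 5 counts in the 2 term libraries. The corresponding ratios were 19.9 in WT distal, 172 in CF proximal and 57.8 in CF distal lung, none of them called. Single libraries moved these values, and the fitted log2 fold change in WT distal lung was -4.31 with all libraries, -2.71 without replicate 1 of day 65 (adjusted p = 0.0909, edgeR) and -5.19 without replicate 2 of term. In CF distal lung it was -5.82, and -4.97 without replicate 1 and -8.13 without replicate 2 of term. In WT distal lung at day 120 neither library had a count.

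*INSM1*, the zinc-finger transcription factor gene, never exceeded 1.18 CPM. At day 65 its libraries held 0.842 and 0.0549 CPM (WT proximal), 0.934 and 0.165 (WT distal), 0.995 and 1.18 (CF proximal) and 1.15 and 0.704 (CF distal), and at day 80 all 8 lay between 0.221 and 0.627 CPM. At day 100 none of the 8 exceeded 0.0797 CPM. At day 120 the libraries ranged from 0 to 0.35 CPM, the highest being WT distal replicate 2. At term *INSM1* was detected in every distal library, at 0.199 and 0.263 CPM in WT and 0.105 and 0.111 CPM in CF, while the proximal libraries held 2 counts in WT and 2 counts in CF in all.

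The granin gene *SCG2* varied widely between replicates. At day 65 the libraries held 1.32 and 0 CPM in WT proximal, 3.58 and 0.165 in WT distal, 2.97 and 1.37 in CF proximal and 1.13 and 0.763 in CF distal lung. At day 80 its 8 libraries ranged from 0.161 to 1.14 CPM and at day 100 from 0 to 0.259 CPM. At term the libraries held 0.279 and 0.184 CPM in WT proximal, 0.199 and 1.6 in WT distal, 0 and 0 in CF proximal and 0.169 and 0.334 in CF distal lung. WT proximal lung had no *SCG2* count at day 100 or day 120, and CF proximal lung had none at term.

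**Figure D2:**
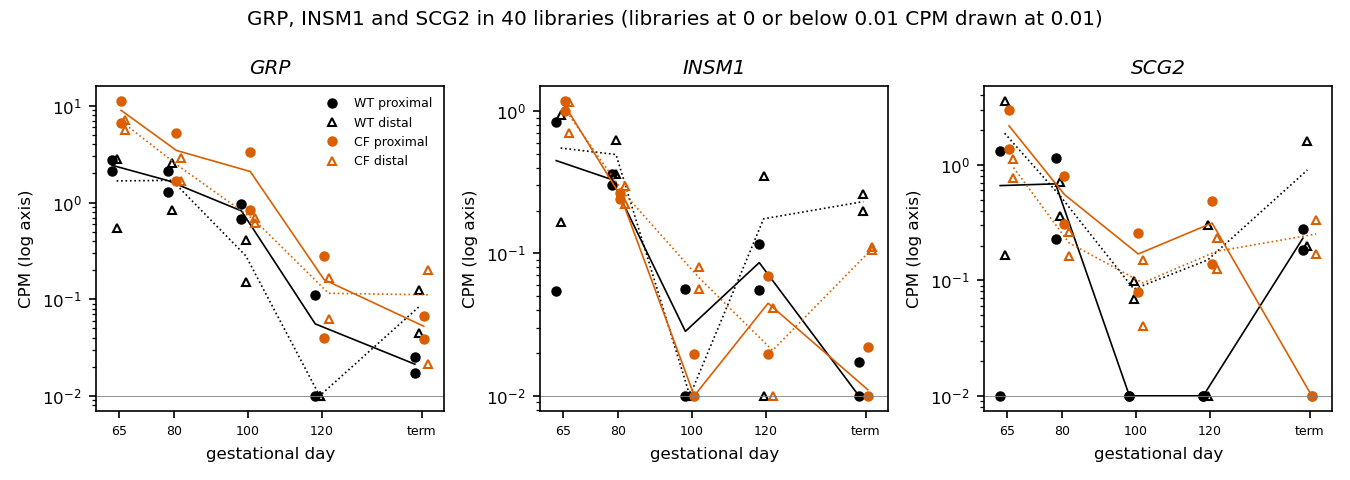
CPM (log axis) of GRP, INSM1 and SCG2 in each of the 40 libraries against gestational day, with libraries at 0 or below 0.01 CPM drawn at 0.01 and lines through the condition means. GRP lies between 0.549 and 11.3 CPM at day 65 and at 0.279 CPM or less from day 120, while INSM1 and SCG2 scatter over wide ranges within conditions.

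*SYP*, which encodes synaptophysin, did not follow the others. Its libraries lay between 1.04 and 2.7 CPM at day 65, 0.767 and 1.92 at day 80, 1.01 and 2.33 at day 100, 1.39 and 3.14 at day 120 and 0.678 and 2.85 at term. The ranges of all 5 time points overlapped. The term to day 65 log2 fold change of *SYP* was -0.19 (SE 0.49) in WT proximal, -0.47 (SE 0.44) in WT distal, -0.02 (SE 0.60) in CF proximal and 0.55 (SE 0.45) in CF distal lung, and none passed the test.

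Change over time was tested in each time course of 10 libraries by edgeR's quasi-likelihood test, with adjusted p values after Benjamini and Hochberg computed across every gene tested. The limits of the study were kept, so a called gene has an adjusted p of at most 0.001 and changed by 0.58 or more on the log2 scale. Across all 5 time points *UCHL1* (adjusted p = 8.37e-06), *SCG5* (2.03e-06) and *CHGA* (0.000677) changed in WT proximal lung, where 10.6% of all genes were called. *UCHL1* (3.26e-06) and *SCG5* (2.29e-05) changed in WT distal lung, against 7.48% of all genes. In CF distal lung *UCHL1* (0.000111), *SCG5* (0.000422) and *CHGA* (0.000716) changed, against 3.59% of all genes. CF proximal lung had 0 of 7 called, and 0.0254% of all genes. In WT proximal lung *GRP* missed the limit narrowly (adjusted p = 0.00107). The adjusted p of *SYP* ranged from 0.194 to 0.959 over the 4 time courses.

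Day 65 and term, the ends of the course, were compared in the same fits. In WT proximal lung 4 of 7 members fell, where 6.56% of all genes were called lower: *UCHL1* (log2 fold change -5.61, SE 0.30, adjusted p = 3.25e-06), *SCG5* (-3.76, SE 0.16, 1.36e-06), *CHGA* (-3.76, SE 0.41, 0.000117) and *GRP* (-6.68, SE 0.90, 0.000368). In WT distal lung 3 of 7 fell, against 5.25% of all genes: *UCHL1* (-5.26, SE 0.20, 2.54e-06), *SCG5* (-3.49, SE 0.23, 1.64e-05) and *CHGA* (-3.09, SE 0.40, 0.000418). The same 3 fell in CF distal lung, against 2.28% of all genes: *UCHL1* (-5.77, SE 0.42, 3.48e-05), *SCG5* (-4.59, SE 0.46, 0.00017) and *CHGA* (-4.13, SE 0.49, 0.000431). CF proximal lung had 0 of 7 called, with 0.0406% of all genes called lower, although the fitted log2 fold changes of *UCHL1* (-5.29, SE 0.83, adjusted p = 0.00734) and *SCG5* (-4.82, SE 0.79, 0.00901) were as large as elsewhere. Without replicate 2 of day 120, *SCG5* passed the limit there (adjusted p = 0.000947) while *UCHL1* (0.00173), *CHGA* (0.00203) and *GRP* (0.00243) did not, and leaving out replicate 1 of that day instead gave nearly the same (0.000864 for *SCG5*, 0.0016, 0.00187 and 0.00229 for the others). In bulk tissue fewer cells of a type and less RNA per cell cannot be told apart.

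The calls for *UCHL1* in 3 time courses and for *SCG5* in both WT time courses held whichever library was left out, for all time points and for the ends alike. *GRP* lost its call in WT proximal lung without either library of day 65 or of term, with an adjusted p of up to 0.00463. Between the ends *CHGA* lost its call in WT proximal lung without either term library (up to 0.00143), in WT distal lung without either library of days 65, 80 or 100 or replicate 1 of term (up to 0.00203) and with the WT day 100 libraries summed (0.00122), and in CF distal lung without either library of day 65, day 100 or term (up to 0.00469). *SCG5* in CF distal lung lost that call without either term library or replicate 2 of day 65 (up to 0.00316). Over all time points, *CHGA* was no longer called in WT proximal lung without either library of days 65, 80 or 120 or term (up to 0.00465) or in CF distal lung without any 1 of the 10 libraries (up to 0.00399), and *SCG5* in CF distal lung without either library of days 65, 80 or 100 or term (up to 0.00379).

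Between consecutive time points 2 of 112 member tests were called, both from day 100 to day 120. *SCG5* fell in WT proximal lung (log2 fold change -2.46, SE 0.16, adjusted p = 0.000415), where 0.0770% of all genes were called. *UCHL1* fell in WT distal lung (-2.87, SE 0.18, adjusted p = 0.000359), where 0.0274% were called. Each call was lost without either library of day 100 or day 120, and without either library of day 80, and for *SCG5* also of day 65, with adjusted p values up to 0.00676 (*SCG5*) and 0.0109 (*UCHL1*). Both use the day 100 libraries that share 1 animal label, and both were lost with these summed (adjusted p = 0.00338 for *SCG5* and 0.00623 for *UCHL1*, edgeR) and with a replicate block (0.00207 and 0.0012). The same gene in the other WT region had a similar size but missed the limit: *SCG5* had -2.47 in distal lung (adjusted p = 0.00239) and *UCHL1* -2.46 in proximal lung (0.00368). In CF distal lung the day 100 to day 120 value of *UCHL1* was -2.15 (adjusted p = 0.0325). Between day 120 and term *UCHL1* had -1.78 (0.00207) in WT proximal, -1.33 (0.00175) in WT distal and -1.90 (0.0099) in CF distal lung, and *CHGA* had -1.60 (0.0172) in WT proximal lung. In that last interval 2.14% of all genes were called in WT proximal, 1.15% in WT distal, 0% in CF proximal and 0.338% in CF distal lung, and from day 100 to day 120 0% were called in CF proximal and 0.0103% in CF distal lung. Before day 100 no gene at all was called between consecutive time points in any time course.

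**Figure D3:**
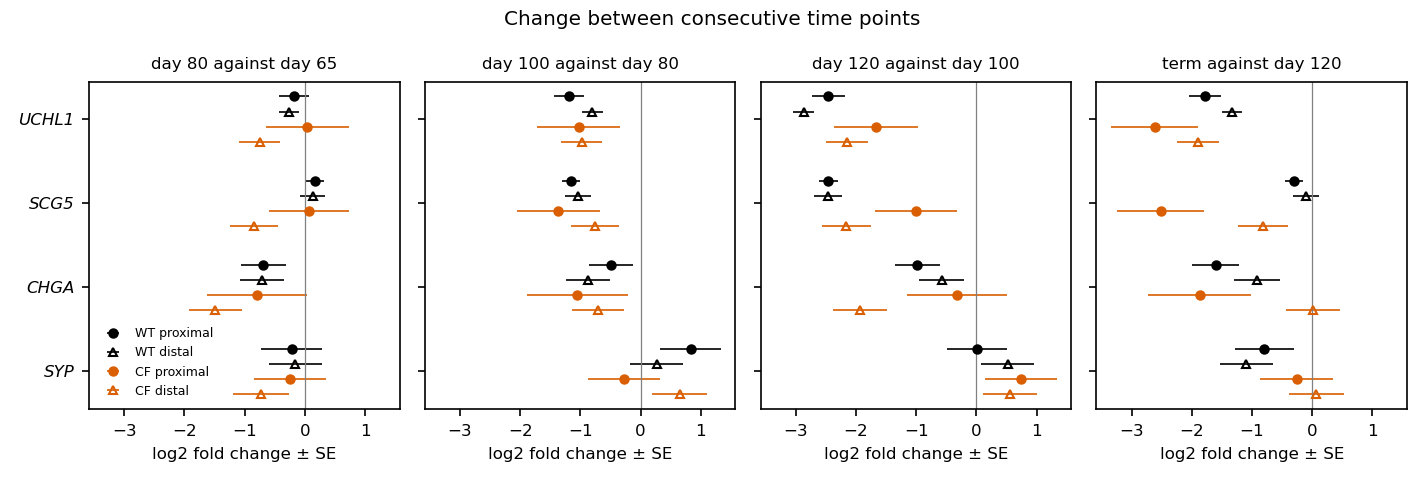
Log2 fold change with SE between consecutive time points for UCHL1, SCG5, CHGA and SYP in the 4 time courses (edgeR). The day 120 against day 100 values of UCHL1 and SCG5 lie below those of day 80 against day 65 in both WT regions, at -2.46 or lower, while the SYP values lie between -1.10 and 0.83.

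CF was compared with WT within each region to ask which members differ with genotype through gestation. At single time points 0 of 70 member tests were called, and 8 of the 70 had an unadjusted p below 0.05. Over all genes 0% were called in proximal lung from day 65 to day 120 and 0.339% at term, and in distal lung 0.0797%, 0.164%, 0.149%, 0.0896% and 1.25% from day 65 to term. DESeq2 and edgeR's likelihood ratio test also called 0. The CF mean of *GRP* was above the WT mean in 10 of 10 pairs of groups, beside 3 to 5 of 10 for each of the other 6 members, and its values are given for that reason. At day 65 both CF libraries lay above both WT libraries in each region, and the CF mean was 3.72 times the WT mean in proximal and 3.82 times in distal lung. The 2 regions came from the same animals, so they are not separate evidence. How many of all genes separate in this way, or have the CF mean higher in 10 of 10 pairs, was not computed. The log2 fold changes of *GRP* at day 65 were 1.89 (SE 0.90, adjusted p = 0.406 by edgeR) in proximal and 1.95 (SE 0.88, adjusted p = 0.223) in distal lung. At days 80 and 100 the ratio of means was 2.05 and 2.55 in proximal and 1.35 and 2.34 in distal lung, with overlapping libraries except in distal lung at day 100.

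Averaged over the 5 time points, *GRP* was higher in CF by 1.39 on the log2 scale (SE 0.46, adjusted p = 0.0429, edgeR) in proximal lung, where 2.61% of all genes were called, and by 2.04 (SE 0.63, adjusted p = 0.0259) in distal lung, where 5.94% were called. Neither passed the limit of 0.001, and the average includes days on which *GRP* had few or no counts. Over days 65, 80 and 100 alone the values were 1.42 (SE 0.52, adjusted p = 0.0864) and 1.21 (SE 0.52, 0.102), where 0.565% and 4.89% of all genes were called. With every library thinned to the same depth, the 5-day average was 1.00 (adjusted p = 0.279) in proximal and 1.81 (0.0416) in distal lung. The bias-adjusted quasi-likelihood gave adjusted p values of 0.117 (proximal) and 0.12 (distal), and summing the WT day 100 libraries gave 0.0728 for the proximal average. Leaving out single libraries moved the proximal average from 0.98 (adjusted p = 0.112, without CF replicate 2 of day 120) to 2.42 (0.0222, without WT replicate 2 of day 120, the WT library of that day with *GRP* counts), and the distal average from 1.55 (0.111, without CF replicate 2 of term) to 2.35 (0.0106, without WT replicate 1 of day 65). The lowest adjusted p of the proximal average was 0.00887 (1.55, without CF replicate 1 of day 120). Over days 65, 80 and 100 the proximal value without CF replicate 2 of day 120 was 1.41 (0.0312). Among the other members, averaged over 5 time points, *UCHL1* differed by 0.01 (SE 0.25) in proximal and -0.21 (SE 0.13) in distal lung, *SCG5* by -0.08 (SE 0.23) and -0.37 (SE 0.15), *CHGA* by 0.21 (SE 0.30) and -0.30 (SE 0.19) and *SYP* by 0.39 (SE 0.25) and -0.37 (SE 0.19), and none was called. *CHGA* in distal lung at day 120 had the smallest adjusted p of a single time point, with 2.23 and 1.5 CPM in WT against 0.494 and 0.897 CPM in CF (log2 -1.41, SE 0.44, adjusted p = 0.0812, edgeR).

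**Figure D4:**
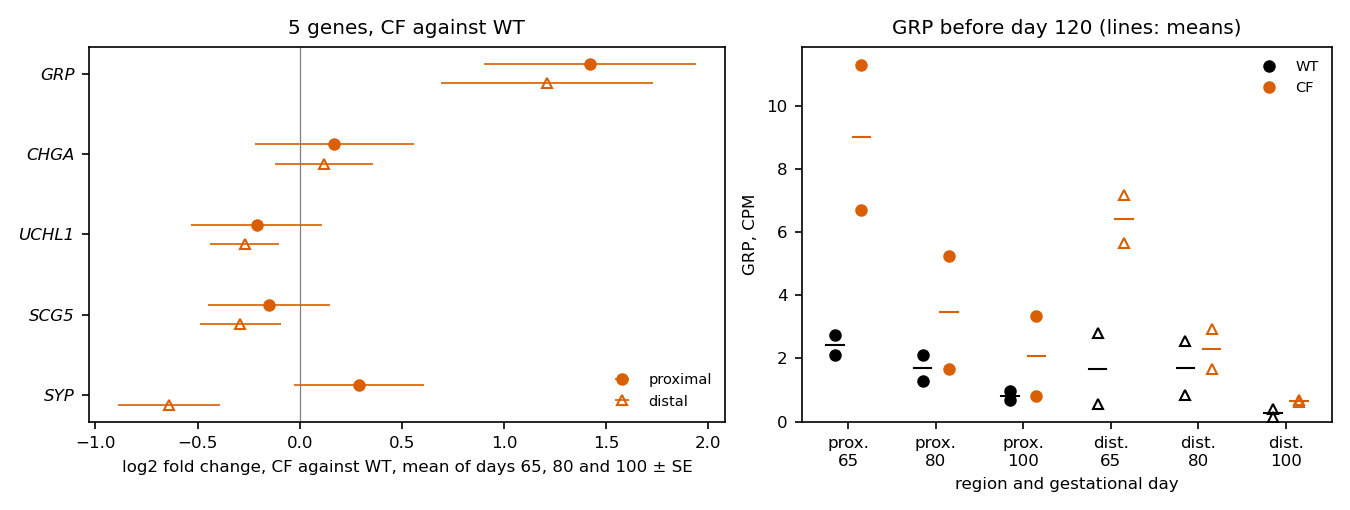
Left, log2 fold change of CF against WT with SE, averaged over days 65, 80 and 100, for 5 genes in proximal and distal lung (INSM1 and SCG2 are left out because a WT group is at 0). Right, GRP CPM in each library before day 120, with lines at the means of 2 libraries. GRP has values of 1.42 and 1.21, and at day 65 all 4 CF libraries (5.64 to 11.3 CPM) lie above the 4 WT libraries (0.549 to 2.8 CPM).

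The change between consecutive time points was also compared between genotypes, and 0 of 56 member tests were called (smallest adjusted p 0.085, 5 with an unadjusted p below 0.05), against 0.0442% (proximal) and 0.189% (distal) of all genes between day 120 and term and 0% in the other intervals. DESeq2 also called 0. The likelihood ratio test called 1, *SCG2* in proximal lung from day 120 to term, which rests on groups with no count. A course of *UCHL1*, *SCG5* or *CHGA* that differs between WT and CF was therefore not detected at this number of animals, and simulated differences of this kind in distal lung between day 120 and term were recovered for 20.4% of genes that differed by 2 on the log2 scale and 1.00% of those that differed by 1 (3934 genes).

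Proximal and distal lung of the same animals were compared next. No member was called averaged over the 10 conditions (0.00481% of all genes were called, and 1 of 7 had an unadjusted p below 0.05) or at any single time point (0 of 35, 3 with an unadjusted p below 0.05, against 0% of all genes), by edgeR or by either of the other tools run. *UCHL1* and *SCG5* were higher in the proximal library in 4 of 20 same-numbered pairs of libraries each, and in 0 of 10 WT pairs, with fitted differences of -0.18 (SE 0.15) and -0.21 (SE 0.14). The fit behind these SE had 1 mean per condition and did not pair the libraries of an animal. *CHGA* and *INSM1* were higher proximally in 6 of 20 pairs, *SCG2* in 8, *SYP* in 10 and *GRP* in 12. The 20 pairs carry fewer than 20 animal labels, since both WT pairs of day 100 share 1 and a further label recurs in WT and CF. *GRP* was higher in the proximal library of 4 of 4 pairs at day 100, 2 of them under that shared WT label (log2 1.63, SE 0.69, adjusted p = 1 by edgeR).

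The other genes of the same cells and pathways were read from lists of known genes, in the comparison of term with day 65. Of 27 further neuroendocrine markers and peptides 23 are in the table, and 13 were tested in WT and 20 in CF lung. *NCAM1*, a neural cell adhesion molecule, fell in WT proximal (log2 fold change -4.63, SE 0.14, adjusted p = 3.91e-07), WT distal (-4.01, SE 0.16, 2.67e-06) and CF distal lung (-3.73, SE 0.46, 0.000522). Its CPM went from 104 and 125 at day 65 to 4.27 and 5.06 at term in WT proximal lung. *ENO2*, neuron-specific enolase, fell in WT proximal (-2.22) and WT distal lung (-2.35), and *CDK5R1*, an activator of the kinase CDK5, in CF distal lung (-3.28). *SEC11C*, a signal peptidase subunit, rose instead, by 2.13 in WT proximal and 2.09 in WT distal lung. In all, 2 of 13 were called lower and 1 of 13 higher in each WT region, 2 of 20 lower in CF distal and 0 of 20 in CF proximal lung. Over all genes 6.56% were lower and 8.15% higher in WT proximal, 5.25% and 6.43% in WT distal, 0.0406% and 0.0356% in CF proximal, and 2.28% and 2.42% in CF distal lung, so that the single higher call of each WT region is about the share of all genes. Most of the list was not called, and its median log2 fold change was -2.03, -1.72, -2.73 and -1.81 in WT proximal, WT distal, CF proximal and CF distal lung, beside medians of -0.08 to 0.02 over all genes. Scarce genes pass the filter through the time points at which they have counts, and more of them were tested in the deeper CF libraries. The medians of this and the following lists are therefore a description, not comparable between genotypes or with all genes.

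Of 16 genes of peptide processing and dense-core granules, among them *PCSK1*, *PCSK2* and *CPE*, 14 or 15 were tested and 0 were called in any time course, with medians between -0.43 and 0.06. Of all genes 6.56% were called lower and 8.15% higher in WT proximal, and 5.25% and 6.43% in WT distal lung. In CF proximal lung the shares were 0.0406% and 0.0356%, and in CF distal lung 2.28% and 2.42%. *PCSK2* had fewer than 10 counts in 31 of 40 libraries and *PCSK1* in 19, so the lack of a call says little about them. Of the synaptic vesicle and release genes, 2 of 16 tested fell in WT proximal lung (6.56% of all genes) and 2 of 19 in WT distal lung (5.25%). These were *SNAP25*, a fusion protein of the release machinery (-3.11 and -2.95), and *SV2A*, a synaptic vesicle glycoprotein (-2.90 and -3.33). *SYNGR3* (2.54) and *SYPL1* (0.76), 2 relatives of *SYP* in the vesicle membrane, rose in WT proximal lung (2 of 16, against 8.15% of all genes). In CF lung 0 of 22 tested were called in the proximal and 0 of 20 in the distal region, near the small CF shares of all genes given above. The median of the list was -0.55 in WT proximal, -0.76 in WT distal, -2.32 in CF proximal and -1.06 in CF distal lung.

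Among 34 genes of autonomic neurons and axons, *DCX*, a microtubule protein of young neurons, fell in WT proximal (-6.21), WT distal (-5.87) and CF distal lung (-4.35). Its CPM at day 65 was 12.2 and 14.7 in WT proximal lung and 0.117 and 0.244 at term. *THY1* fell in WT distal (-1.27) and *CHRNA3*, a nicotinic receptor subunit of autonomic ganglia, in CF distal lung (-4.30). The calls were thus 1 of 24 tested in WT proximal, 2 of 23 in WT distal, 0 of 32 in CF proximal and 2 of 29 in CF distal lung, all lower, beside 6.56%, 5.25%, 0.0406% and 2.28% of all genes called lower. The median log2 fold changes of this list were -1.34, -1.27, -4.66 and -2.16 in the same order, and as ratios of mean CPM, with 7 genes of CF proximal lung at their bound, that of CF proximal lung was -4.38. Of 12 glial genes, *CRYAB*, a small heat shock protein, rose in WT proximal (2.47), WT distal (2.37) and CF distal lung (2.86) and *NGFR*, a neurotrophin receptor, fell in CF distal lung (-5.15), and no other glial gene was called among the 10 to 12 tested per time course. Of all genes 8.15%, 6.43% and 2.42% were called higher in WT proximal, WT distal and CF distal lung, and 2.28% lower in CF distal lung.

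Of 8 peptide receptor genes, 1 of 4 tested rose in WT proximal, 1 of 5 in WT distal, 2 of 6 in CF distal and 0 of 6 in CF proximal lung, against 8.15%, 6.43%, 2.42% and 0.0356% of all genes called higher, and none was called lower. *CALCRL*, which forms the CGRP receptor with RAMP1, rose by 1.31 in WT proximal and 2.29 in CF distal lung, *RAMP1* rose by 2.26 in CF distal lung and *RAMP3* by 2.47 in WT distal lung. *GRPR*, the receptor of GRP, did not exceed 0.531 CPM in any library, and *NMBR* had no count in 40 libraries. Of 22 Notch and proneural regulators 18 were tested in WT lung, where 1 of 18 fell in each region (6.56% and 5.25% of all genes) and 1 of 18 rose in proximal lung (8.15%). *RCOR2*, a corepressor of the CoREST family, fell in WT proximal (-2.26) and WT distal lung (-1.70) and *ID2*, an inhibitor of proneural factors, rose by 0.79 in WT proximal lung. Over all of these lists and the tissue checks, 50 calls were made between day 65 and term, none changed direction when any 1 library was left out, and 14 of the 50 were kept in every such fit, among them *NCAM1* in both WT regions. Under the other settings 31 of the 50 were kept throughout, and *ID2* in WT proximal and *RCOR2* in WT distal lung were each lost in 4 of 9. The call of *ENO2* in WT proximal lung was lost whichever library was left out, and in 2 of 9 of the other settings.

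**Figure D5:**
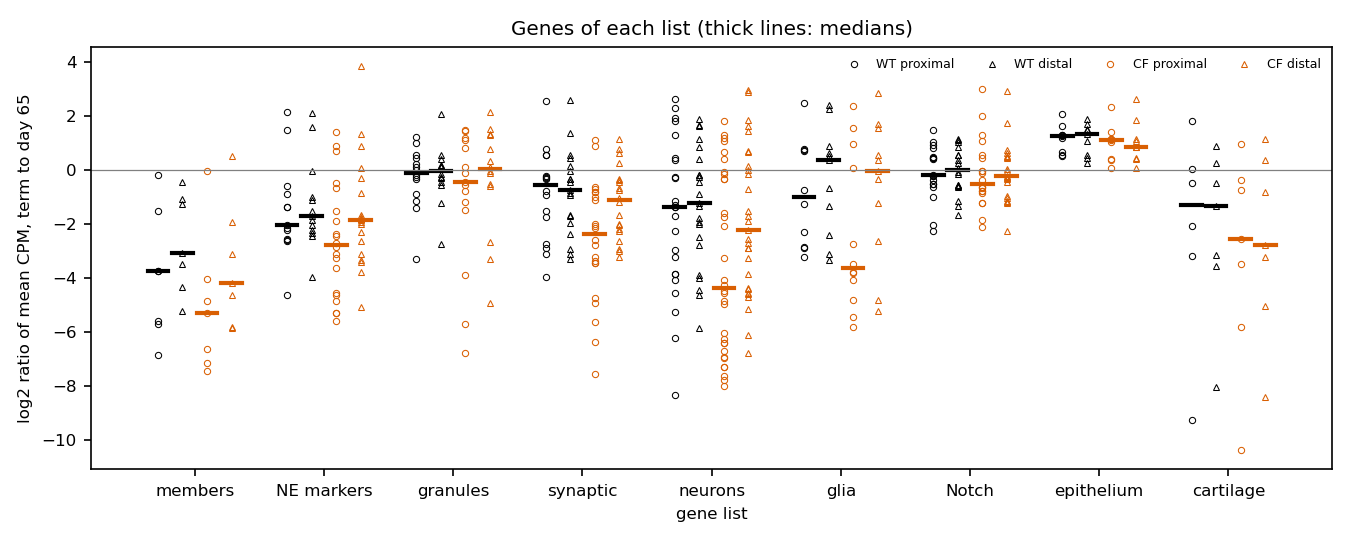
Log2 ratio of mean CPM at term to that at day 65 for each tested gene of 9 lists in the 4 time courses, with groups at 0 set to 3 counts over the 2 libraries together and thick lines at the medians. The members have medians from -5.30 to -3.07, the granule genes from -0.44 to 0.03 and the epithelial genes from 0.85 to 1.35.

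Other tissue genes moved over the same days. The summed CPM of 7 cartilage genes was 362 to 618 at day 65 and 29.6 to 37.2 at term, of which *COL2A1*, a cartilage collagen, alone gave 249 to 459 CPM at day 65. *COL2A1* fell in WT proximal (-9.24), WT distal (-8.07) and CF distal lung (-8.35). *SOX9*, which directs cartilage and distal airway progenitors, fell there as well (-3.19, -3.17 and -3.19), and *COL11A2* fell in CF distal lung (-2.76). The calls were 2 of 6 tested in WT proximal, 2 of 7 in WT distal, 3 of 7 in CF distal and 0 of 7 in CF proximal lung, beside 6.56%, 5.25%, 2.28% and 0.0406% of all genes called lower. *ACAN*, the cartilage proteoglycan aggrecan, had positive values in WT proximal (1.79, adjusted p = 0.0051, edgeR) and WT distal lung (0.86, 0.335), and *COL9A2* had 0.02 and 0.24 there. At day 120 in CF proximal lung the cartilage sum was 31.6 in 1 library and 135 in the other, and *COL2A1* was at 0.984 and 72.1 CPM. The library with the cartilage transcripts was replicate 2, in which *UCHL1*, *SCG5*, *CHGA* and *GRP* were also higher. Of 9 epithelial genes tested, 4 rose in WT proximal and 3 in WT distal lung, against 8.15% and 6.43% of all genes. In either CF region 0 of 9 were called, near the share of all genes called higher there (0.0356% proximal and 2.42% distal). *CDH1* rose by 2.08 and 1.86 in WT proximal and distal lung. *KRT8* rose by 1.62 and 1.66 and *KRT18* by 1.28 and 1.45 in the same regions, and *CLDN4* by 1.19 in WT proximal lung. The leukocyte gene *PTPRC* rose by 3.68, 2.93 and 3.50 in WT proximal, WT distal and CF distal lung, the endothelial gene *PECAM1* by 1.41 and 1.30 in WT proximal and distal lung, where the endothelial genes *VWF* (-0.76 and -0.39) and *CDH5* (0.36 and 0.18) were not called, and the erythroid gene *ALAS2* fell in WT distal lung (-5.15). The part of these tissue changes in the levels of the members was not tested.

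The likeness of the courses is given as a description over the 20 condition means of log2 CPM, which share libraries, depth and time points. *UCHL1* and *SCG5* had a Pearson correlation of 0.98, *CHGA* had 0.94 with each of them, and *GRP* had 0.87 to 0.89 with these 3. *INSM1* and *SCG2* had 0.74 with each other, and *SYP* had -0.37 to -0.16 with the other members. Among all genes whose average log2 CPM was at least 1, those most like *UCHL1* included *MTHFD1* (0.99) and *TTC27* (0.98), and those most like *SCG5* were *COL2A1*, *UCHL1* and *PRCP* (0.98 each). *FKBP1B*, *LOC101108627* and *MDK* (0.96 each) were nearest to *CHGA*, and *SSRP1*, *SOX9* and *THOP1* (0.95 each) to *GRP*. *SMOC2* (0.9) and *GHRL* (0.89) were nearest to *INSM1*, *TTLL1* and *SRM* (0.82 each) to *SCG2*, and *AMPH* (0.83) and *SCARA5* (0.79) to *SYP*.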

How the data were processed

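Total RNA from sheep proximal and distal lung was converted to cDNA with oligo dT priming and sequenced as 100 bp paired ends. The authors aligned reads to Oar_v4.0 with STAR (version 2.6 in the submitters' processing notes) and counted them per gene with featureCounts 1.6.3. The deposited values are raw counts per gene, neither normalized nor pooled. The annotation release, strand setting and handling of mates are not given in the sources used here. Of low counts, 69.2% to 85.8% in each library were even. A further table repeated the CF counts and was not used. The number of counts limits the precision of scarce genes, and floors cover counting error only.

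The tests were run with edgeR 4.0.16 under R 4.3.3 (filterByExpr at 10 counts per library and 15 in total, TMM, glmQLFit, glmQLFTest, Benjamini-Hochberg over all genes tested). Each time course of 10 libraries was fitted alone, CF against WT within a region, and proximal against distal over 40 libraries, with 1 mean per condition. The SE is the size of the log2 fold change divided by the square root of F. RPKM used the deposited gene lengths, and for correlations a prior count of 2 was added to CPM on the log2 scale. The steps were tested on simulated data: for WT proximal day 120 against day 100, 62.2% of genes changed by 2 on the log2 scale and 10.3% of those changed by 1 were recovered among 3896 genes, and for CF against WT distal lung at term 38.8% and 0% among 3921 genes.

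The 7 members and all lists were chosen with earlier results of these data known. Named genes are the members, up to 5 genes of a list called in a comparison, and the genes most correlated with each member. Some genes that this rule or the lists include are not reported here. The comparison of term with day 65 and the mean of days 65, 80 and 100 were added after seeing the data. Alternatives were RLE scaling, no filter, DESeq2 1.42.0, the likelihood ratio test, libraries thinned to equal depth, the bias-adjusted quasi-likelihood, 1 fit of 40 libraries, a replicate block, summing the WT day 100 libraries and leaving out each library. Same-numbered proximal and distal libraries come from 1 animal, and their deviations correlated at -0.47 to 0.85, above 0.1 in 7 of 10 pairs. Numbers did not pair time points or genotypes.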

Additional observations from a re-analysis of the deposited data

How the results depend on the processing

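Of the 28 tests over time, 8 were called. This count was 19 at an adjusted p limit of 0.05, 18 with DESeq2, 20 with the edgeR likelihood ratio test and 15 in 1 fit of 40 libraries, and 6 to 8 without each library in turn. The 2 calls between consecutive time points became 10 at a limit of 0.05, 8 at 0.01, 6 without a filter, 12 with DESeq2, 13 with the likelihood ratio test, and 0 with the 2 WT day 100 libraries summed or in 1 fit of 40 libraries, and 1 to 4 without each library in turn. With the replicate number as a block, they became 0 (adjusted p of 0.00207 for *SCG5* in WT proximal and 0.0012 for *UCHL1* in WT distal lung) and the count over time 7, since *CHGA* in WT proximal lung was lost (0.00208). The block changed no other call of a member, but these numbers pair only the regions of an animal. Averaged over time points, CF against WT went from 0 calls to 2 at a limit of 0.05, both *GRP*, and neither passed that limit with the bias-adjusted quasi-likelihood (0.117 and 0.12). The difference between genotypes in change went from 0 to 1 with the likelihood ratio test. Proximal against distal lung gave 0 calls in every setting, also with the numbers crossed in the 3 conditions whose replicates deviated in opposite directions. Summing the WT day 100 libraries also cost *CHGA* its call between day 65 and term in WT distal lung (adjusted p = 0.00122). Thinning to equal depth cost 1 call of a member, *GRP* between day 65 and term in WT proximal lung (adjusted p = 0.00124). None of the 32 contrasts of a member past an adjusted p of 0.05 and none of the 50 list calls changed direction in any setting. Of the other 304 member contrasts 122 did so in at least 1 setting, among them *SYP* between day 65 and term in WT proximal, WT distal and CF proximal lung and *UCHL1*, *SCG5* and *CHGA* between CF and WT proximal lung averaged over 5 time points. RLE scaling and plain library totals moved the mean of each member over all 40 libraries by less than the average SD between replicates. Of 140 means of single conditions, however, 1 moved by more than its own SD with RLE scaling and 19 with plain totals, which changed these means by factors of 0.756 to 1.16. Depth limits *INSM1*, *SCG2* and, from day 120, *GRP*, which had 0 to 24 counts in a library.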
